A study of Mus musculus with 8 samples.

Results

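The transcripts described here encode chaperones, folding enzymes and quality control proteins of the endoplasmic reticulum (ER), together with the sensors and transcription factors of the unfolded protein response (UPR). They are a list of 36 named genes chosen by role, not by a measured value, though with earlier results of these data known. Of these, 35 were measured among the 22180 genes on the arrays. Pdia4, a protein disulfide isomerase, had only a probe set annotated to a microRNA gene as well and was not analysed here.

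Hepatic stellate cells store vitamin A in the healthy liver and turn into collagen-secreting myofibroblasts in injury or on plastic. Primary stellate cells of BALB/c mice were profiled in 4 groups, with 2 Affymetrix arrays per group and 8 in all. Quiescent cells were taken at 0 hours with no culture. Cultured cells had spent 10 days on plastic in DMEM with serum, and in vivo activated cells were taken from mice after 2 or 4 weeks of carbon tetrachloride (CCl4), a hepatotoxin. The protocol text attached to each sample mentions 2.5 mM valproic acid, started once cells were seeded, but no group label names this drug, and its use in the cultured cells remains unknown. Nothing states that replicates were separate mice or separate cultures. The p-values therefore reflect the spread between these arrays alone, and that spread may be technical. Levels are log2 RMA values, and 1 unit is a doubling of signal. Differences are log2 fold changes ± SE from limma over all 8 arrays (n = 2 per group), called at a Benjamini-Hochberg adjusted p under 0.05.

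Secreted and membrane proteins enter the ER through the Sec61 channel, are folded by chaperones such as BiP (Hspa5) and by disulfide isomerases, and leave for the Golgi in COPII vesicles. When unfolded proteins build up, the sensors IRE1 (Ern1), PERK (Eif2ak3) and ATF6 start the UPR. IRE1 splices the Xbp1 message, PERK slows translation and raises ATF4, and cleaved ATF6 enters the nucleus, so that chaperone and degradation genes are transcribed. Collagen is a heavy load on this pathway, and its folding also needs a dedicated chaperone, Hsp47 (Serpinh1).

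All 35 genes had a mean level above the 95th percentile of olfactory and vomeronasal receptor genes (4.68), which served as a guide to background. Replicate arrays differed in a member by a median of 0.14 in quiescent, 0.09 in cultured, 0.15 in 2-week and 0.08 in 4-week cells. Only Kdelr3 differed more than 2-fold between replicates, and only in quiescent cells. The median level over the 35 genes was 8.97 and 8.87 on the quiescent arrays, 9.08 and 9.23 in culture, 9.32 and 9.53 at 2 weeks, and 9.48 and 9.55 at 4 weeks.

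Promoter sequences of 300 bases, from 250 before to 50 after the start, were found in RefSeq (GRCm38.p6) for 30 of the 36 genes. They were searched on both strands for the ER stress response elements bound in the UPR. ERSE was read as CCAAT, any 9 bases, then CCACG, and ERSE-II as ATTGG, any 1 base, then CCACG. ERSE was found in 8 of the 30 genes (26.7%) and in 39 of all 32851 promoters in the table (0.119%). ERSE-II was found in 2 of the 30 (6.67%) and in 12 of all promoters (0.0365%). The 39 and 12 include promoters of the members. These genes were chosen for their role in the ER and UPR, and the elements are those of the UPR. The higher shares are therefore not a result of these data. Such a match is a description and not a binding site. The windows are shown because some of the genes that carry an element passed a test below and others passed none. Capitals run from the first to the last base of the element, each window is on the strand of its gene, and an element on the other strand appears as its reverse complement.
Hspa5, chr2:34772013-34772055, plus strand: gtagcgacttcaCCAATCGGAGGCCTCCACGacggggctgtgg
Pdia6, chr12:17266479-17266521, plus strand: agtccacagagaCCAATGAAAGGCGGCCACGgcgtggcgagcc
Syvn1, chr19:6046520-6046562, plus strand: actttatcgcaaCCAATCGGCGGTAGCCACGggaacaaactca
Dnajc3, chr14:118937815-118937857, plus strand: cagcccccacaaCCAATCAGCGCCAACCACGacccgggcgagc
Canx, chr11:50325788-50325830, minus strand: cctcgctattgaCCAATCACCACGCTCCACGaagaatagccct
Hsp90b1, chr10:86705626-86705668, minus strand: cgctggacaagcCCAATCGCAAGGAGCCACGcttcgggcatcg
Calr, chr8:84847063-84847105, minus strand, element reversed: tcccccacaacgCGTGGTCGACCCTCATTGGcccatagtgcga
Creld2, chr15:88819508-88819550, plus strand, element reversed: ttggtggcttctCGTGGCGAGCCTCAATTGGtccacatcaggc
Herpud1, ERSE-II, chr8:94386365-94386399, plus strand: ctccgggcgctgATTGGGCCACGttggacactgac
Dnajb11, ERSE-II, chr16:22857852-22857862, plus strand: ATTGGCCCACG

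Counted in bases from the start, the element of Hspa5 lay at -65 to -47 and that of Syvn1 at -44 to -26. ERSE-II of Herpud1 lay at -52 to -42, whereas that of Dnajb11 lay after the start, at 8 to 18. Hsp90b1 held another ERSE, on the other strand, at -107 to -89. UPRE (TGACGTG) was found in Hspa5 and, on the other strand, in Kdelr3, against 2.01% of all promoters. CARE (TGATGCAA), an element read by ATF4 and its partners, was found in Herpud1 alone among the 30 genes, against 0.895% of all promoters.

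Kdelr3, a retrieval receptor, Serpinh1, the collagen chaperone, P4hb, a disulfide isomerase, and the transcription factor Creb3l1 rose in culture and in both CCl4 groups, while the stress sensors passed the test in no comparison. In 10-day culture, 8 of the 35 genes rose and 3 fell, where 12.9% of all genes tested rose and 10.3% fell. After 2 weeks of CCl4, 5 rose and 0 fell, against 2.34% and 2.43% of all genes (4.77% in either direction). After 4 weeks of CCl4, 13 rose and 0 fell, against 4.04% and 4.67%. Of the 35, 34 had a mean level above the median of all genes. In a fit of only the 11090 genes above that median, 2655 rose and 2153 fell in culture. There, 600 rose and 603 fell at 2 weeks, and 991 and 1073 at 4 weeks. The 8 rises in culture are near that culture share, and the 3 falls are under it. Shares over all genes, here and below, include the dimmer genes. The median change of the 35 genes was 0.23 in culture, 0.12 at 2 weeks and 0.28 at 4 weeks, where the median of all genes was 0.01, 0.00 and 0.00. These 3 comparisons share the quiescent arrays. With 2 arrays per group, a lack of overlap between arrays is common. It was seen, in either direction, for 58.2% of all genes in culture, 43.5% at 2 weeks and 48.7% at 4 weeks, each against quiescent cells. For the 0 falls, limma's unadjusted p was under 0.05 for 1 gene at each CCl4 time, and limma with trend and robust options called 0.

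**Figure D1:**
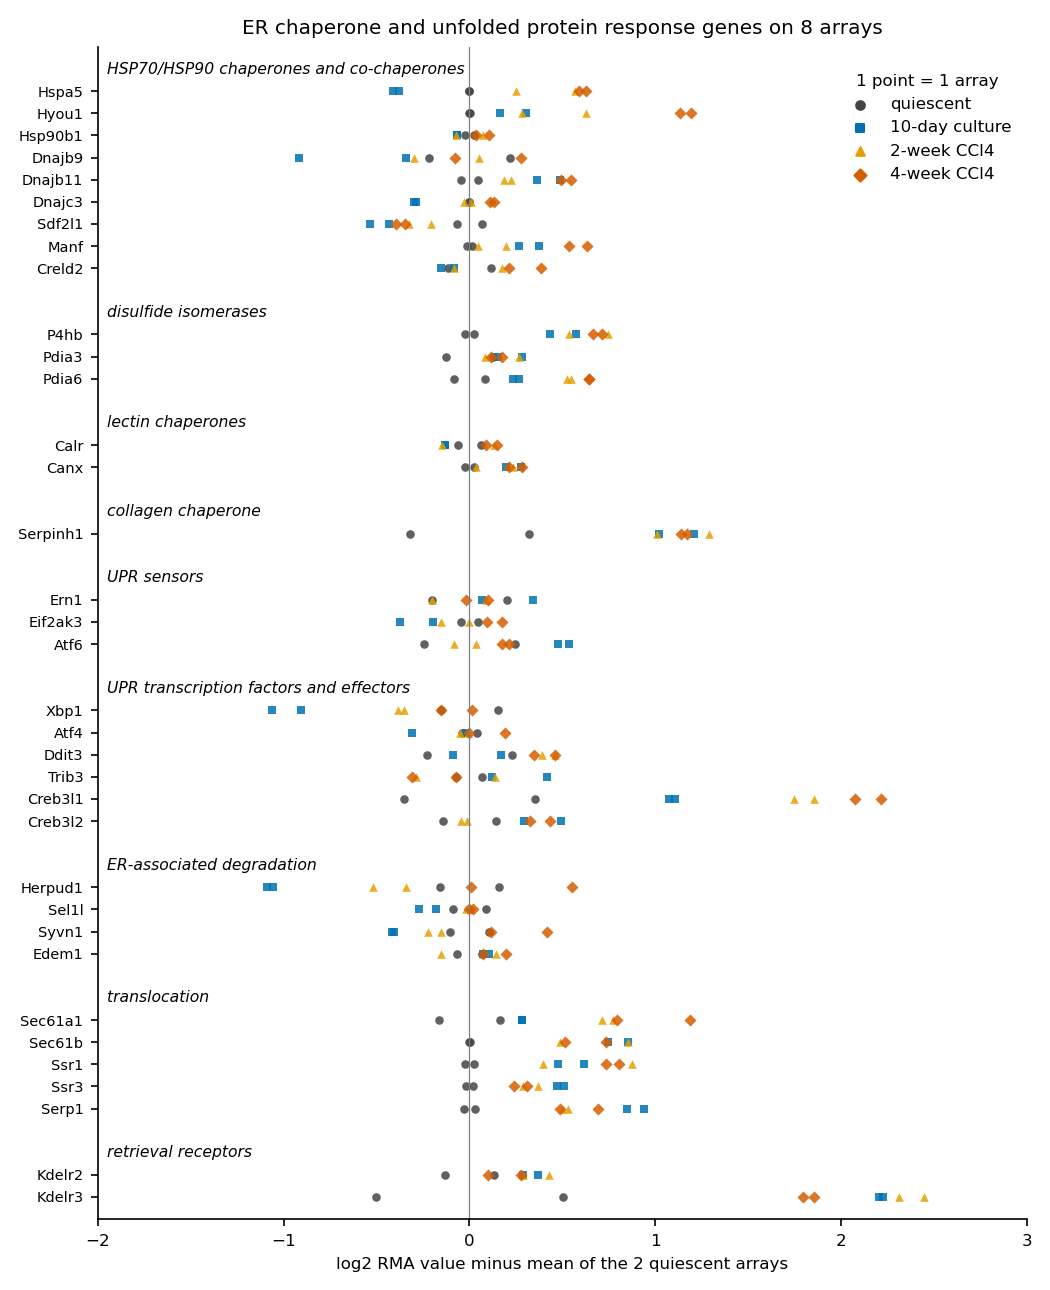
Each point is 1 array, plotted as its log2 RMA value minus the mean of the 2 quiescent arrays (x axis), for the 35 genes grouped by role (y axis). Kdelr3, Creb3l1 and Serpinh1 lie to the right of both quiescent arrays in each activated group, whereas the cultured points of Xbp1 and Herpud1 lie about 1 log2 unit to the left.

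Several of these counts changed when a single array was left out, which leaves 1 array in a group. Over all genes, the number of rises was also smaller in each leave-out fit listed here, except at 4 weeks without quiescent replicate 2. A smaller count in such a fit therefore does not show that the members depended on that array more than other genes did. The count of 8 rises in culture became 5 without quiescent replicate 2 or without cultured replicate 1, and 4 without cultured replicate 2. The count of 5 rises at 2 weeks became 2 without quiescent replicate 1 or 2-week replicate 1, and 3 without 2-week replicate 2 or any cultured or 4-week array. The count of 13 rises at 4 weeks became 5 without quiescent replicate 1, 7 without quiescent replicate 2, 8 without either cultured array, and 4 and 3 without 4-week replicates 1 and 2. With each array centred on its median, culture gave 10 rises and 2 falls, and after a repeated quantile normalization 6 rises and 4 falls. Of the 36 calls over all comparisons, 14 held in each of the 8 fits that left out 1 array, and 3 were lost in each of them. The calls that held throughout were those of Kdelr3 and Creb3l1 against quiescent cells in all 3 activated groups, Serpinh1, Serp1, Xbp1 and Herpud1 in culture, Hyou1 at 4 weeks, and Hspa5, Xbp1 and Herpud1 between culture and CCl4.

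Of the retrieval receptors, which return escaped ER chaperones from the Golgi by their KDEL-like tails, Kdelr3 rose in every activated group. Its levels were 6.09 and 7.10 on the quiescent arrays, 8.82 and 8.80 in culture, 9.04 and 8.91 at 2 weeks, and 8.39 and 8.45 at 4 weeks. No activated array overlapped the quiescent ones, which themselves lay more than 2-fold apart. The change was 2.22 ± 0.27 in culture (4.65-fold, limma adjusted p = 0.000475), 2.38 ± 0.27 at 2 weeks (5.22-fold, 0.00256) and 1.82 ± 0.27 at 4 weeks (3.54-fold, 0.00477). Kdelr2, its paralog, read 11.57 and 11.83 in quiescent cells and between 11.80 and 12.13 on the 6 activated arrays. Its changes of 0.33, 0.36 and 0.19 did not pass the test (limma adjusted p = 0.17, 0.268 and 0.587).

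Serpinh1, the collagen chaperone Hsp47, rose to a like level in all activated groups. It read 7.99 and 8.63 in quiescent cells, 9.52 and 9.33 in culture, 9.32 and 9.60 at 2 weeks, and 9.48 and 9.45 at 4 weeks. Every activated array was above both quiescent ones. The change was 1.12 ± 0.21 in culture (2.17-fold, limma adjusted p = 0.00517), 1.15 ± 0.21 at 2 weeks (0.0193) and 1.15 ± 0.21 at 4 weeks (0.0123). The 2-week call was lost without quiescent replicate 1 or either 2-week array, and the 4-week call without either 4-week array, with adjusted p up to 0.112 and 0.0935. Col1a1, a main client of this chaperone, rose in the same comparisons, by 1.97 ± 0.27, 3.18 ± 0.27 and 2.70 ± 0.27 (limma adjusted p = 0.000817, 0.000493 and 0.000688). Between culture and the CCl4 groups, Serpinh1 differed by -0.04, with a 95% interval from -0.46 to 0.38, whereas Col1a1 was 0.97 ± 0.23 lower in culture by limma (adjusted p = 0.017; lost without either cultured array, 2-week replicate 2 or 4-week replicate 1, up to 0.0998).

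**Figure D2:**
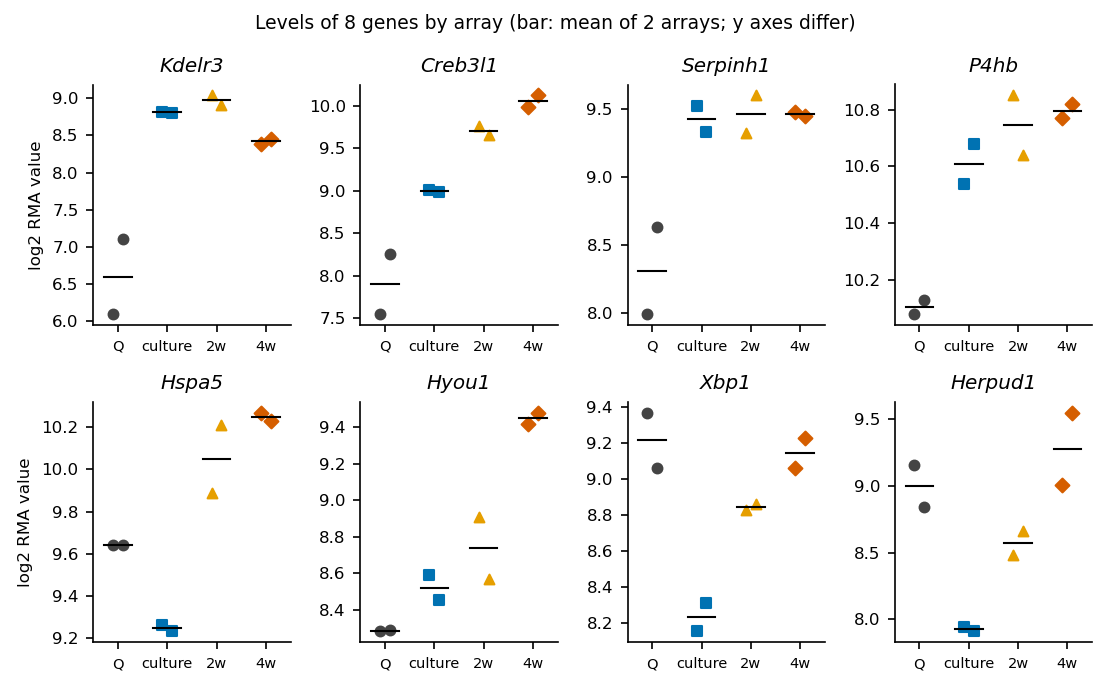
Log2 RMA value (y axis, a separate scale in each panel) of 8 genes on each array of quiescent (Q), 10-day culture, 2-week CCl4 (2w) and 4-week CCl4 (4w) cells; bars are means of 2 arrays. Kdelr3, Creb3l1, Serpinh1 and P4hb are above both quiescent arrays on all activated arrays, whereas the cultured arrays are the lowest for Hspa5, Xbp1 and Herpud1.

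All 5 translocation genes had a positive change in each activated group, and 3 passed the test in culture, 1 at 2 weeks and 4 at 4 weeks, where 12.9%, 2.34% and 4.04% of all genes rose. Sec61a1, which encodes the pore of the channel, read 9.45 and 9.78 in quiescent cells, 9.90 and 9.90 in culture, 10.39 and 10.33 at 2 weeks, and 10.41 and 10.80 at 4 weeks. It rose by 0.75 ± 0.18 at 2 weeks and by 0.99 ± 0.18 at 4 weeks (limma adjusted p = 0.0491 and 0.01). Its change of 0.29 in culture did not pass (0.314). The 2-week call held only without quiescent replicate 2 among the 8 fits that left out an array (up to 0.234), and the 4-week call was lost without 4-week replicate 2 (0.0845).

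Sec61b, another channel subunit, read 10.55 and 10.56 in quiescent cells, 11.30 and 11.41 in culture, 11.41 and 11.04 at 2 weeks, and 11.07 and 11.29 at 4 weeks. It rose by 0.80 ± 0.16 in culture (1.74-fold, limma adjusted p = 0.00727) and by 0.63 ± 0.16 at 4 weeks (0.0499), while 0.67 at 2 weeks missed the threshold (0.0557). Without cultured replicate 2 the culture call was lost (0.0531), and the 4-week call was kept only where the array left out was a 2-week one (up to 0.271). A dimmer probe set of Sec61b rose by 0.71 in culture (0.0326) and gave 0.39 at 4 weeks (0.341).

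Serp1, which protects Sec61 channels under stress, read 8.97 and 9.03 in quiescent cells, 9.85 and 9.94 in culture, 9.50 and 9.53 at 2 weeks, and 9.49 and 9.69 at 4 weeks. All activated arrays were above the quiescent ones, and the cultured ones were the highest. It rose by 0.90 ± 0.14 in culture (1.86-fold, limma adjusted p = 0.00149) and 0.59 ± 0.14 at 4 weeks (0.0302, lost unless the array left out was a 2-week one, up to 0.195). The translocon-associated subunits Ssr1 and Ssr3 each passed in a single comparison. Ssr1 rose by 0.77 ± 0.17 at 4 weeks (limma adjusted p = 0.0288), a call lost without any quiescent or 4-week array (up to 0.17). It missed the threshold in culture (0.55, 0.0529) and at 2 weeks (0.64, 0.0839). Another Ssr1 probe set was past the threshold in all 3, with 0.47, 0.62 and 0.92 (0.0452, 0.0458 and 0.00602). Ssr3 rose by 0.49 ± 0.13 in culture (0.0222), a call lost without any quiescent or cultured array (up to 0.108).

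Among the disulfide isomerases, which form and reshuffle disulfide bonds, P4hb rose in every activated group. P4hb also serves as the beta subunit of collagen prolyl hydroxylase. It read 10.08 and 10.13 in quiescent cells, 10.54 and 10.68 in culture, 10.85 and 10.64 at 2 weeks, and 10.77 and 10.82 at 4 weeks, with no overlap with the quiescent arrays. The changes were 0.50 ± 0.14, 0.64 ± 0.14 and 0.69 ± 0.14 (limma adjusted p = 0.0293, 0.0359 and 0.0179). The culture call was kept only without either 2-week array (up to 0.161), the 2-week call was lost in all 8 such fits (0.0588 to 0.21), and the 4-week call was lost without quiescent replicate 1 or either 4-week array (up to 0.113).

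Pdia6 read 9.45 and 9.62 in quiescent cells, 9.77 and 9.80 in culture, 10.06 and 10.08 at 2 weeks, and 10.18 and 10.18 at 4 weeks. The groups did not overlap, and Pdia6 rose by 0.64 ± 0.13 at 4 weeks (1.56-fold, limma adjusted p = 0.0189; lost without quiescent replicate 1 or either 4-week array, up to 0.115). At 2 weeks 0.53 missed the threshold (0.0557), and culture gave 0.25 (0.235). Pdia3, which works with the lectin chaperones on glycoproteins, gave 0.22, 0.17 and 0.14 and did not pass. The lectin chaperones themselves, Calr and Canx, also did not pass in any comparison, and their changes ran from -0.13 to 0.25 against quiescent cells.

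Of the 9 HSP70 and HSP90 chaperones and co-chaperones, 1 rose and 1 fell in culture and 4 rose at 4 weeks, against 12.9%, 10.3% and 4.04% of all genes. The 1 rise and 1 fall in culture are near those shares. Hspa5, which encodes BiP, the main ER HSP70 and a standard readout of the UPR, read 9.64 and 9.64 in quiescent cells, 9.26 and 9.23 in culture, 9.89 and 10.21 at 2 weeks, and 10.27 and 10.23 at 4 weeks. The cultured arrays were below and all CCl4 arrays above the quiescent pair. It rose by 0.61 ± 0.15 at 4 weeks (1.52-fold, limma adjusted p = 0.0364), a call kept only without either 2-week array (up to 0.19). The change was -0.40 in culture (0.09) and 0.40 at 2 weeks (0.194), and neither passed. After a repeated quantile normalization the fall in culture was -0.53 and passed (0.0286).

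Hyou1, an ER HSP70 that serves BiP as a nucleotide exchange factor, read 8.28 and 8.29 in quiescent cells, 8.59 and 8.45 in culture, 8.91 and 8.57 at 2 weeks, and 9.42 and 9.48 at 4 weeks. The 4-week arrays stood above all others. It rose by 1.17 ± 0.15 at 4 weeks (2.24-fold, limma adjusted p = 0.00265), while 0.23 in culture and 0.45 at 2 weeks did not pass (0.361 and 0.161). Hsp90b1 (GRP94), the ER HSP90, lay between 11.71 and 11.89 on all 8 arrays, and its changes of -0.06, 0.00 and 0.07 did not pass. The 95% interval of its 4-week change ran from -0.23 to 0.37.

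The remaining BiP partners and UPR-induced proteins moved in different directions. Dnajb11, a J-domain co-chaperone, rose by 0.42 ± 0.13 in culture and 0.52 ± 0.13 at 4 weeks (limma adjusted p = 0.0473 and 0.043), and both calls were lost in each fit that left out 1 array (up to 0.218 and 0.201). Manf, a secreted ER stress protein, read 7.03 and 7.06 in quiescent and 7.68 and 7.58 in 4-week cells and rose by 0.59 ± 0.13 (0.0304; kept only without either 2-week array, up to 0.186). Sdf2l1, a BiP co-factor, read 7.85 and 7.98 in quiescent cells and 7.48 and 7.38 in culture. It fell by 0.49 ± 0.13 in culture (limma adjusted p = 0.0298; kept only without either 2-week array, up to 0.15). In the CCl4 groups Sdf2l1 gave -0.27 and -0.37, which did not pass (0.38 and 0.15). Dnajb9, Dnajc3 and Creld2 did not pass against quiescent cells. Dnajb9 was uneven between replicates, at 9.08 and 9.66 in culture, and its change there was -0.63 ± 0.25 (limma adjusted p = 0.111).

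None of the 3 stress sensors passed in any comparison. Ern1 gave 0.20 in culture (limma adjusted p = 0.532) and Eif2ak3 gave -0.29 (0.202). Atf6 read 8.56 and 8.07 in quiescent cells and 8.79 and 8.85 in culture, a difference of 0.51 ± 0.17 that missed the threshold (0.0688), and passed without quiescent replicate 1 (0.75, 0.0136) and with arrays centred on their median (0.59). Transcript levels do not report the cleavage, phosphorylation or splicing by which these proteins act.

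Of the UPR transcription factors, Xbp1 and Creb3l1 moved in opposite directions in culture. Xbp1, whose spliced message encodes the IRE1 branch's factor, read 9.37 and 9.06 in quiescent cells, 8.15 and 8.31 in culture, 8.83 and 8.86 at 2 weeks, and 9.06 and 9.23 at 4 weeks. The cultured arrays were the lowest and did not overlap with any other. Xbp1 fell by 0.98 ± 0.16 in culture (1.98-fold lower, limma adjusted p = 0.00182), while -0.37 at 2 weeks and -0.07 at 4 weeks did not pass (0.274 and 0.888). A gene-level value does not separate spliced from unspliced Xbp1.

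Creb3l1 (OASIS), a membrane-bound factor of the ATF6 type that acts on collagen genes, read 7.55 and 8.26 in quiescent cells, 9.01 and 8.98 in culture, 9.76 and 9.65 at 2 weeks, and 9.98 and 10.12 at 4 weeks. The groups did not overlap, with quiescent lowest and 4-week highest, though 4 and 2 weeks did not differ past the threshold (0.34 ± 0.22, limma adjusted p = 0.781). Creb3l1 rose by 1.09 ± 0.22 in culture (2.13-fold, limma adjusted p = 0.00606), by 1.80 ± 0.22 at 2 weeks (3.49-fold, 0.00314) and by 2.14 ± 0.22 at 4 weeks (4.42-fold, 0.000715). Its relative Creb3l2 gave 0.40 in culture, -0.03 at 2 weeks and 0.38 at 4 weeks, none past the threshold. Atf4 differed by -0.17 in culture (limma adjusted p = 0.53) and read between 10.22 and 10.72 on all arrays. Ddit3 (CHOP), the death-linked factor downstream of ATF4, gave 0.05, 0.43 and 0.41 and did not pass (0.912, 0.274 and 0.252). Trib3, a CHOP target, lay between 4.41 and 5.14, near the background guide, and did not pass.

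ER-associated degradation sends misfolded proteins to the cytosol for the proteasome. Herpud1, a membrane organiser of this machinery, read 9.16 and 8.84 in quiescent cells, 7.94 and 7.91 in culture, 8.48 and 8.66 at 2 weeks, and 9.01 and 9.55 at 4 weeks. The cultured arrays again lay below all others. It fell by 1.07 ± 0.20 in culture (2.1-fold lower, limma adjusted p = 0.00446), and its changes of -0.43 at 2 weeks and 0.28 at 4 weeks did not pass (0.328 and 0.529). Syvn1 (HRD1), the ubiquitin ligase, read 7.87 and 8.08 in quiescent and 7.57 and 7.56 in cultured cells, a difference of -0.41 that missed the threshold (0.0942). Sel1l, the adaptor of HRD1, gave -0.22, 0.00 and 0.01 and did not pass. Edem1, which targets glycoproteins for disposal, gave 0.09 in culture by the brighter probe set (0.751) and 0.57 by the dimmer one (limma adjusted p = 0.0189), so its probe sets disagreed.

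Cultured and CCl4 cells were then compared directly, culture against the mean of both CCl4 groups (2 arrays against 4). Of the 35 genes, 7 were lower in culture and 0 higher, where 8.72% of all genes were lower and 12.6% higher. In the fit of only the 11090 genes above the median level, 1942 were lower and 2555 higher. The 7 are near that share of lower genes, and the 0 is under that of higher ones. For the 0, limma's unadjusted p was under 0.05 for 3 genes (Serp1, Trib3 and Atf6), and limma with trend and robust options called 1, Serp1. The 7 were Herpud1, Hspa5, Creb3l1, Xbp1, Hyou1, Sec61a1 and Syvn1. Without either cultured array the count of 7 became 3, namely Hspa5, Xbp1 and Herpud1. Without either quiescent array, Atf6 was called higher in culture, by 0.42. With arrays centred on their median, 6 were lower and 1 was higher, since Syvn1 was lost and Serp1 passed.

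Herpud1 was lower by 1.0 ± 0.17 (1.99-fold, limma adjusted p = 0.00343), Hspa5 by 0.90 ± 0.13 (1.87-fold, 0.0011) and Xbp1 by 0.77 ± 0.13 (1.7-fold, 0.00357). For each of these 3, both cultured arrays lay below all 4 CCl4 arrays. Over all genes, 39.9% had no overlap between cultured and CCl4 arrays, in either direction. Creb3l1 was lower by 0.88 ± 0.19 (0.00951) and Hyou1 by 0.58 ± 0.13 (0.014), and both calls were lost without either cultured array (up to 0.0716 and 0.12). The Hyou1 arrays overlapped, since 2-week replicate 2 at 8.57 lay below cultured replicate 1 at 8.59. Sec61a1 was lower by 0.58 ± 0.15 (limma adjusted p = 0.0249) and Syvn1 by 0.44 ± 0.13 (0.0441). Both were lost without either cultured array, either 2-week array or 4-week replicate 2 (up to 0.128 and 0.188).

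Other members showed no called difference between culture and CCl4, with wide intervals. Kdelr3 differed by 0.12 (95% interval -0.42 to 0.66), Kdelr2 by 0.05 (-0.24 to 0.35) and P4hb by -0.16 (-0.44 to 0.11). Serp1 differed by 0.34 (0.07 to 0.61, limma adjusted p = 0.0761). Dnajc3, a co-chaperone that inhibits PERK, differed by -0.35 ± 0.11 and missed the threshold by little (limma adjusted p = 0.0508). It passed with trend and robust options (0.0161) and after a repeated quantile normalization (0.0338). The cultured group differs from the CCl4 group in plastic, in vivo environment, time and possibly valproic acid, which cannot be told apart. The groups also differed in other gene lists described below. The median of immediate early genes was 7.14 and 7.25 in culture and 10.19 to 10.44 in CCl4 cells. That of hepatocyte markers was 4.57 and 4.59 in culture and 6.18 to 7.91 in CCl4 cells. Endothelial markers had medians of 5.50 and 5.16 in culture and 6.34 to 7.61 in CCl4 cells. Those of macrophage markers were 5.70 and 5.77 against 5.94 to 7.45, and of stellate markers 9.07 and 9.22 against 10.76 to 11.14. The part of these lists in the differences of the ER genes was not tested.

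**Figure D3:**
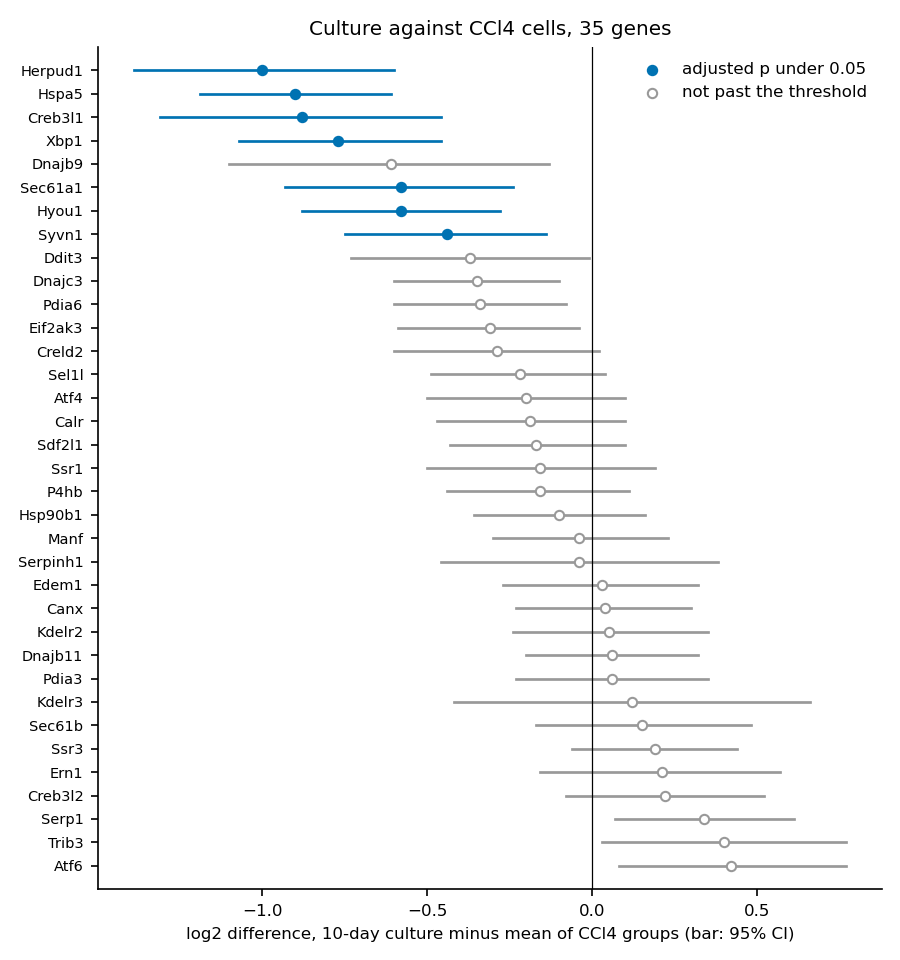
Log2 difference of 10-day culture minus the mean of the 2-week and 4-week CCl4 groups (x axis) for the 35 genes (y axis), with limma's 95% confidence interval as a bar. Filled points are the 7 genes past an adjusted p of 0.05, all of them lower in culture, from -1.0 for Herpud1 to -0.44 for Syvn1.

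Between 2 and 4 weeks of CCl4, 0 of the 35 genes passed in either direction, where 0.0857% of all genes did (0.0271% higher and 0.0586% lower). Limma's unadjusted p was under 0.05 for 6 genes, all higher at 4 weeks, and limma with trend and robust options called 0. The 6 were Hyou1, Herpud1, Manf, Syvn1, Creb3l2 and Dnajb11. Hyou1 and Herpud1 had the largest of these differences, 0.71 ± 0.15 and 0.71 ± 0.20 (limma adjusted p = 0.179 and 0.324). The median difference of the 35 genes was 0.13, against -0.01 over all genes.

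Members with and without an ER stress element were set side by side for the 29 measured genes with a promoter sequence. Hyou1, Sec61a1, Manf, Kdelr2, Creb3l1 and Atf6 had no such sequence and are in neither set. Among them, Hyou1, Sec61a1, Manf and Creb3l1 rose at 4 weeks, and Hyou1, Sec61a1 and Creb3l1 were lower in culture than in CCl4 cells. The counts below therefore leave out part of the called genes. Of the 10 with ERSE or ERSE-II, 3 rose at 4 weeks (Hspa5, Pdia6 and Dnajb11), and 3 were lower in culture than in CCl4 cells (Hspa5, Herpud1 and Syvn1). Of the 19 without, 6 rose at 4 weeks and 1 was lower in culture than in CCl4 cells. Of all genes, 4.04% rose at 4 weeks and 8.72% were lower in culture than in CCl4 cells, and 1 of 19 is near that share. The median difference between culture and CCl4 was -0.32 with and -0.04 without an element. Between 4 and 2 weeks the medians were 0.17 and 0.05. Against quiescent cells they were -0.12 and 0.22 in culture, 0.02 and 0.00 at 2 weeks, and 0.27 and 0.14 at 4 weeks. At 2 weeks 0 of the 10 and 3 of the 19 rose, and the shares that rose at 4 weeks were similar. Hsp90b1, Canx, Calr, Dnajc3 and Creld2 carry the same spaced words as Hspa5 in the windows above, and did not pass in any of the 5 comparisons. These are counts over a chosen list, with no test.

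Further genes of the same pathways, from other lists, were tested in the same fit. Of 28 genes linked to ATF4 and the integrated stress response, 15 rose and 4 fell in culture, with a median change of 0.97, where 12.9% of all genes rose and 10.3% fell. The 4 falls are near the share over all genes. Leaving out 1 array gave 14 to 16 rises and 3 to 4 falls. The members with the smallest p moved by large amounts, although Atf4 itself did not pass. Asns, asparagine synthetase, read 5.41 and 5.32 in quiescent cells, 9.44 and 9.57 in culture, and between 5.27 and 5.72 on the 4 CCl4 arrays. It rose by 4.14 ± 0.14 in culture (17.7-fold, limma adjusted p = 3.31e-07). Psat1, an enzyme of serine synthesis, rose by 3.28 ± 0.18 (6.07e-06) and the stress protein Nupr1 by 2.18 ± 0.13 (8.11e-06).

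The 4 falls on this list were of Atf3, Ppp1r15a, Cebpb and Fgf21. Atf3, a stress-responsive repressor, read 10.64 and 10.50 in quiescent cells, 6.53 and 6.97 in culture, and between 9.58 and 10.24 in CCl4 cells. It fell by 3.81 ± 0.20 in culture (limma adjusted p = 3.81e-06). Ppp1r15a (GADD34), which reverses the translation block set by PERK, fell by 2.08 ± 0.19 (7.7e-05), and the factor Cebpb by 1.28 ± 0.13 (0.00017). Fgf21, a secreted hormone, fell by 0.51 ± 0.15 (limma adjusted p = 0.035), a call lost without any quiescent or cultured array. The median of 20 immediate early genes, which are induced within minutes of handling or stress, was 10.54 and 10.53 on the quiescent arrays, between 10.19 and 10.44 on the CCl4 arrays, and 7.14 and 7.25 in culture. Its part in these falls was not tested. Against CCl4 cells, 15 of the 28 were higher and 4 lower in culture, where 12.6% and 8.72% of all genes were (12 to 15 and 3 to 5 when 1 array was left out), Asns by 4.00 ± 0.12 and Atf3 by -3.24 ± 0.17 (limma adjusted p = 1.59e-07 and 4.43e-06).

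In the CCl4 groups the median change of the ATF4-linked list was 0.09 at 2 weeks and 0.21 at 4 weeks. At 2 weeks, 1 of 28 rose (Aldh18a1, an enzyme of proline synthesis, by 0.82 ± 0.19) and 0 fell. Its limma adjusted p of 0.0458 stayed below the threshold only without quiescent replicate 2 among the leave-one-out fits (up to 0.185). At 4 weeks 6 rose and 2 fell (2.34% of all genes rose at 2 weeks, and 4.04% rose and 4.67% fell at 4 weeks). The 6 became 1 without quiescent replicate 1 or 4-week replicate 1, 0 without 4-week replicate 2, 3 without either cultured array and 4 without any other. The 2 became 0 without quiescent replicate 1 or either 4-week array, and 1 without quiescent replicate 2 or either 2-week array. For the 0 falls at 2 weeks, limma's unadjusted p was under 0.05 for 0 genes, and limma with trend and robust options also called 0.

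**Figure D4:**
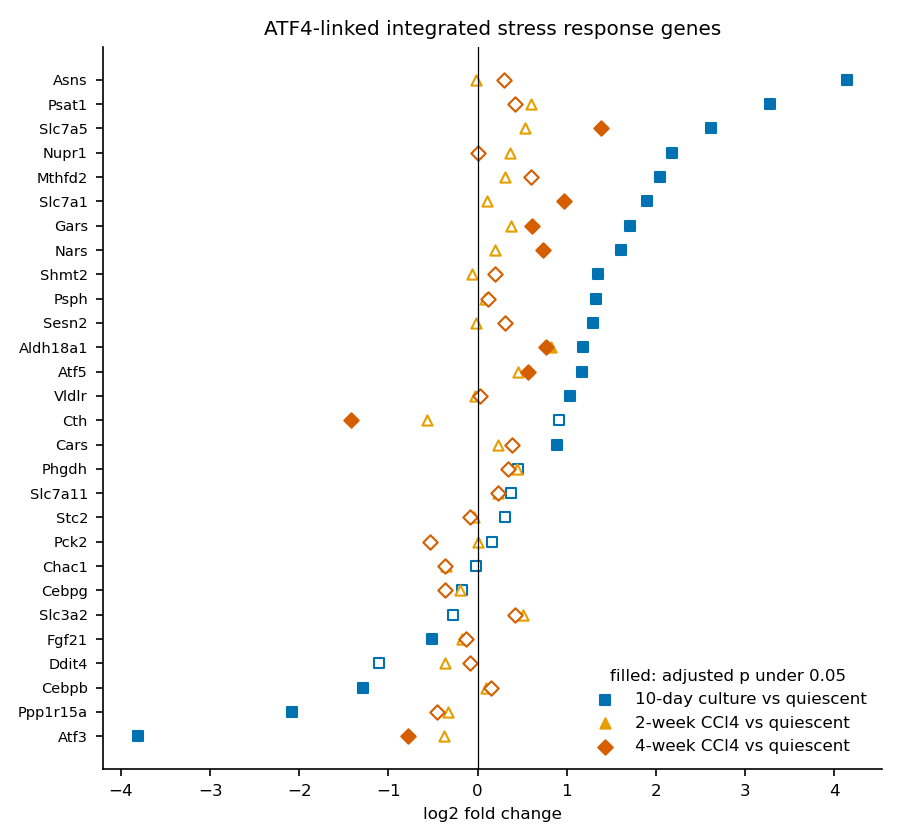
Log2 fold change against quiescent cells (x axis) of 28 genes linked to ATF4 and the integrated stress response (y axis), for 10-day culture, 2-week CCl4 and 4-week CCl4; filled symbols have a limma adjusted p under 0.05. In culture 15 are filled to the right and 4 to the left, from Asns at 4.14 to Atf3 at -3.81, whereas 1 symbol is filled at 2 weeks.

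Among 25 other folding enzymes, 8 rose and 1 fell in culture, 3 rose at 2 weeks and 4 at 4 weeks, where 12.9% of all genes rose and 10.3% fell in culture, and 2.34% and 4.04% rose in the CCl4 groups. The rises at 2 weeks were of Fkbp11 and of Pdia5 and Txndc5, members of the disulfide isomerase family, and Prkcsh, a subunit of glucosidase II, was added at 4 weeks. Fkbp11, a secretory prolyl isomerase, read 6.49 and 6.60 in quiescent cells and between 8.71 and 9.78 on the 6 activated arrays. It rose by 3.02 ± 0.25 in culture, 2.53 ± 0.25 at 2 weeks and 2.70 ± 0.25 at 4 weeks (limma adjusted p = 5.36e-05, 0.00118 and 0.000533), and these calls held whichever array was left out. Ero1a, the oxidase that recharges disulfide isomerases, rose in culture by 1.19 ± 0.17 (0.000929) and gave -0.26 and -0.15 in the CCl4 groups (0.507 and 0.717). Qsox1, another sulfhydryl oxidase, rose in culture by 1.66 ± 0.19 (0.000279). Against CCl4 cells Ero1a was 1.40 ± 0.14 and Qsox1 1.27 ± 0.16 higher in culture by limma (adjusted p = 0.000186 and 0.000645), and 7 of the 25 were higher and 0 lower, where 12.6% and 8.72% of all genes were. For that 0, 4 were lower at limma's unadjusted p under 0.05, and 1 with trend and robust options. The 7 became 3 without cultured replicate 2 or 4-week replicate 1 and 4 without 4-week replicate 2. The 3 rises at 2 weeks became 1 without quiescent replicate 1 or any CCl4 array, and the 4 rises at 4 weeks became 1 without quiescent replicate 1 or either 4-week array. The fall, of Fkbp9, was kept in 1 of the 8 such fits (up to 0.249).

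Of 23 other genes of translocation, signal cleavage and N-glycosylation, 12 rose and 0 fell in culture, 4 rose at 2 weeks and 6 at 4 weeks, where 12.9% of all genes rose and 10.3% fell in culture, and 2.34% and 4.04% rose in the CCl4 groups. The median changes were 0.47, 0.36 and 0.39. Ssr2, a translocon-associated subunit, read 9.46 and 9.60 in quiescent cells, 10.46 and 10.34 in culture, 10.63 and 10.56 at 2 weeks, and 10.80 and 10.91 at 4 weeks. It rose by 0.87 ± 0.14, 1.06 ± 0.14 and 1.33 ± 0.14 (limma adjusted p = 0.00171, 0.00415 and 0.000749), calls that held whichever array was left out. Srprb, of the signal recognition particle receptor, rose by 1.28 ± 0.16 in culture and Tram2, a translocation protein, by 1.61 ± 0.23 (0.00055 and 0.000999). The 12 rises in culture became 7 without quiescent replicate 1 and 6 without cultured replicate 2, the 4 rises at 2 weeks became 1 to 2 without quiescent replicate 1 or any CCl4 array, and the 6 at 4 weeks became 3 and 2 without 4-week replicates 1 and 2. For the 0 falls in culture, 0 genes had limma's unadjusted p under 0.05, and 0 were called with trend and robust options.

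Of 26 genes of ER-to-Golgi transport, 10 rose and 0 fell in culture, 5 rose at 2 weeks and 6 at 4 weeks, against 12.9% and 10.3%, 2.34% and 4.04% of all genes. Sec23a, a COPII coat protein, rose by 1.34 ± 0.17 in culture (limma adjusted p = 0.000543) the cargo receptor Lman1 by 0.67 ± 0.13 (0.00582), and Sar1a, the GTPase that starts the COPII coat, by 0.64 ± 0.13 (0.00801; lost without cultured replicate 2). The 5 genes that rose at 2 weeks were Sec24d, Arfgap3, Sar1a, Sec23a and Sec31a. Sec24d, another COPII subunit, read 7.81 and 7.72 in quiescent cells, 8.27 and 8.25 in culture, 9.16 and 8.85 at 2 weeks, and 9.14 and 9.08 at 4 weeks. The CCl4 arrays stood above the cultured ones. Sec24d rose by 1.24 ± 0.15 at 2 weeks and 1.35 ± 0.15 at 4 weeks (limma adjusted p = 0.00302 and 0.00108) and was 0.80 ± 0.13 lower in culture than in CCl4 cells (0.00227). The count of 10 became 6 without quiescent replicate 1, 4 without cultured replicate 1 and 2 without cultured replicate 2. The count of 5 at 2 weeks became 1 to 2 without any array but quiescent replicate 2, and the count of 6 at 4 weeks became 1 without either 4-week array. For the 0 falls in culture, 1 gene had limma's unadjusted p under 0.05, and trend and robust options called 0.

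Of 18 other degradation genes, 8 rose and 0 fell in culture, against 0 rises at 2 weeks and 2 at 4 weeks, and 3 were higher in culture than in CCl4 cells. Of all genes, 12.9% rose and 10.3% fell in culture, 2.34% and 4.04% rose in the CCl4 groups and 12.6% were higher in culture than in CCl4 cells, so the counts of 0 and 3 are near the shares over all genes. Ufd1, a partner of the p97 ATPase that extracts substrates from the ER, rose by 0.95 ± 0.16 in culture, Ubxn4 by 0.79 ± 0.14, and Vcp, which encodes p97, by 0.83 ± 0.15 (limma adjusted p = 0.00223, 0.00313 and 0.00369). Ubxn4 and Selenos rose at 4 weeks. The count of 8 became 5 without either cultured array, the 2 became 0 without quiescent replicate 1 or either 4-week array and 1 without quiescent replicate 2, and the 3 became 1 without cultured replicate 1 or 4-week replicate 1. For the 0 falls in culture, limma's unadjusted p was under 0.05 for 3 genes, and for the 0 rises at 2 weeks for 2. Trend and robust options called 0 and 1. Of 19 other UPR regulators, 5 rose and 2 fell in culture, 0 rose at 2 weeks and 1 at 4 weeks, where 12.9% of all genes rose and 10.3% fell in culture, and 2.34% and 4.04% rose in the CCl4 groups. The 2 falls and the single rise are near those shares. The falls were of Creb3l3, a liver relative of Creb3l1, by 0.79 ± 0.17, and of Mbtps1, the protease that first cleaves ATF6, by 0.74 ± 0.21 (limma adjusted p = 0.00849 and 0.0305). The rise at 4 weeks was of Eif2ak2 (PKR). The 2 falls became 1 without quiescent replicate 1, cultured replicate 1 or either 4-week array and 0 without cultured replicate 2, and the rise at 4 weeks was lost without 4-week replicate 1. Tnfrsf10b (DR5) encodes a death receptor that CHOP can induce. It read 4.33 and 4.13 in quiescent cells, 8.47 and 8.46 in culture and between 3.97 and 4.63 in CCl4 cells. It rose by 4.23 ± 0.21 in culture (18.8-fold, limma adjusted p = 2.82e-06). Ddit3, which encodes CHOP, gave 0.05 in culture and did not pass, and a link between them was not tested. Wfs1, an ER membrane protein, rose by 1.15 ± 0.17 and Creb3, a relative of Creb3l1, by 1.68 ± 0.18 (0.0014 and 0.000211). For the 0 rises of regulators at 2 weeks, limma's unadjusted p was under 0.05 for 2 genes, and trend and robust options called 0.

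Markers of other liver cells moved with these comparisons. The median of 21 hepatocyte markers was 10.08 and 8.63 on the quiescent arrays, 4.57 and 4.59 in culture, 7.67 and 7.91 at 2 weeks, and 6.48 and 6.18 at 4 weeks. Albumin (Alb) read 11.90 and 11.63 in quiescent cells and 4.42 and 4.17 in culture, under the background guide. In culture 19 of the 21 fell, and 11 at 2 weeks and 19 at 4 weeks, against 10.3%, 2.43% and 4.67% of all genes. The 11 became 0 without 2-week replicate 1, 6 without 2-week replicate 2 and 7 without any cultured or 4-week array. The median of 20 sinusoidal endothelial markers was 9.47 and 8.45 in quiescent cells and 5.50 and 5.16 in culture, and between 6.34 and 7.61 in the CCl4 groups. The median of 20 macrophage markers ran from 7.30 to 7.78 in quiescent, 5.70 to 5.77 in cultured, 7.24 to 7.45 in 2-week and 5.94 to 6.26 in 4-week cells. Plasma cells are rich in ER. Of 10 plasma cell and B cell markers, 1 fell in culture, 1 rose at 2 weeks, and 1 rose and 1 fell at 4 weeks. Of all genes, 10.3% fell in culture, 2.34% rose at 2 weeks, and 4.04% rose and 4.67% fell at 4 weeks. The 1 fall in culture is near its share over all genes. The median changes of the 10 markers were -0.32, 0.01 and 0.12. Their median level lay between 3.93 and 4.59 on all arrays, under the background guide. Jchain fell by 1.96 ± 0.33 in culture and 1.31 ± 0.33 at 4 weeks (limma adjusted p = 0.00268 and 0.0445), the latter kept only without quiescent replicate 2. Sdc1, which other cells also express, rose by 2.13 ± 0.38 at 2 weeks and 2.91 ± 0.38 at 4 weeks (limma adjusted p = 0.0165 and 0.00258), the former lost without 2-week replicate 1.

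The 22 markers of the labelled cell type include genes of quiescent and of activated stellate cells. In culture 6 rose and 12 fell, against 12.9% and 10.3% of all genes. At 2 weeks 8 rose and 6 fell (2.34% and 2.43% of all genes), and at 4 weeks 9 rose and 6 fell (4.04% and 4.67%). Without 2-week replicate 1 the 2-week counts became 4 and 2, and without 2-week replicate 2 they became 4 and 4. The 9 and 6 at 4 weeks became 4 and 3 without 4-week replicate 1 and 6 and 3 without 4-week replicate 2. The median level of the 22 was 9.93 and 10.26 on the quiescent arrays, 9.07 and 9.22 in culture, and between 10.76 and 11.14 in the CCl4 groups. Lrat, the vitamin A storage enzyme of stellate cells, read between 10.95 and 11.29 on the quiescent and CCl4 arrays and 7.21 and 5.74 in culture. Other stellate markers fell in the CCl4 groups as well, such as Vipr1, with changes of -2.13 ± 0.19 at 2 weeks and -2.41 ± 0.19 at 4 weeks, and Colec11, with -1.51 ± 0.25 and -1.93 ± 0.25 (limma adjusted p from 0.000248 to 0.0119; the 2-week call of Colec11 was lost without 2-week replicate 1). Acta2, the smooth muscle actin of activated cells, read 6.78 and 7.24 in quiescent cells and between 11.70 and 12.71 on the activated arrays. In such bulk samples fewer cells of a type and less RNA per cell cannot be told apart. The part of hepatocyte, endothelial and macrophage RNA in the differences of the ER genes was not tested.

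**Figure D5:**
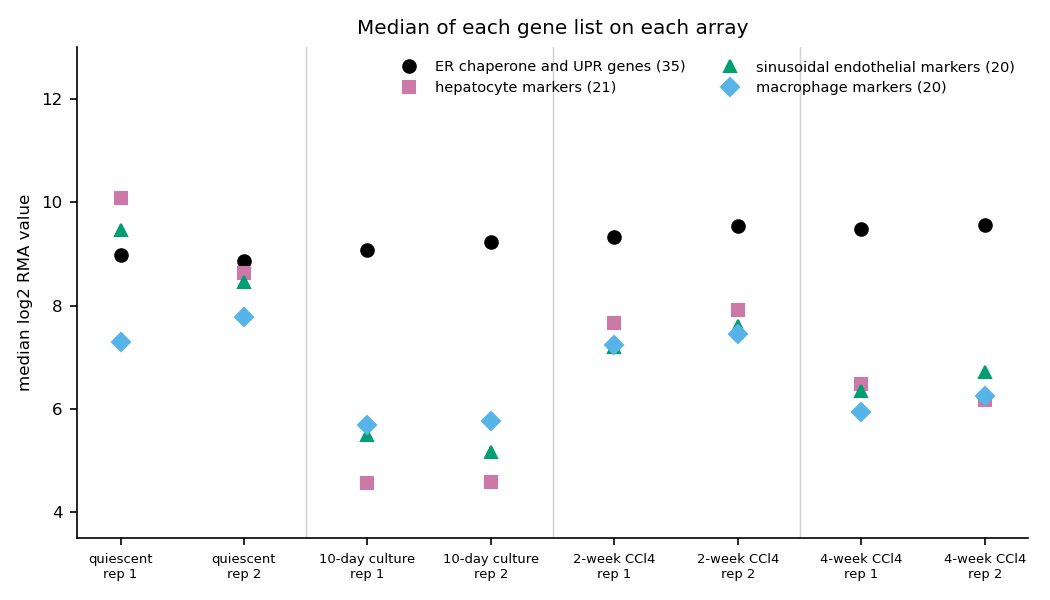
Median log2 RMA value (y axis) of the 35 ER chaperone and UPR genes and of 3 marker lists on each of the 8 arrays (x axis). The ER genes lie between 8.87 and 9.55 on all arrays, whereas the hepatocyte markers fall from 10.08 and 8.63 in quiescent cells to 4.57 and 4.59 in culture.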

How the data were processed

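RNA of primary mouse hepatic stellate cells was amplified before hybridisation (Pico Ovation WTA, per the labels' protocols). The authors deposited log2 values. The submitters' processing notes name RMA and Affymetrix Expression Console. Tool versions and a genome build were not given in the sources used here. This method scales arrays to each other and would hide a shift of most genes.

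Of 41345 probe sets, 23521 had 1 gene symbol in the platform annotation, 1814 several and 16010 were not named here. The single-symbol probe set with the highest mean over the 8 arrays stood for each gene, which left 22180 genes. In a RefSeq table (GRCm38.p6), 186 gene IDs had no row and 0 symbols changed.

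Differences were tested two-sided with limma 3.58.1 in R 4.3.3 in a single fit of 4 groups, with Benjamini-Hochberg adjustment over all genes (4 residual and 4.75 prior degrees of freedom). The script was tested on simulated data. The smallest p of an exact test with 2 arrays per side is 0.333. The number of arrays limits the precision. The members and lists were chosen with earlier results of these data known. Every member was described. From other pathway lists, up to 3 called genes with the smallest p in each direction in culture could be named, and any called gene in another comparison where at most 5 were called. Fgf21 and the stellate markers were named after their values were seen. Alternatives changed the probe set rule, filter, normalization, variance model, samples fitted, replicate block and arrays left out.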

Additional observations from a re-analysis of the deposited data

Results flagged for a closer look

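For 7 genes the change in culture differed from the change in the CCl4 groups by limma's test of the difference itself, which is culture against the mean of the CCl4 groups. The difference, culture minus CCl4 on the log2 scale, was -0.90 for Hspa5, -0.58 for Hyou1, -0.77 for Xbp1, -0.88 for Creb3l1, -1.0 for Herpud1, -0.44 for Syvn1 and -0.58 for Sec61a1. Hspa5, Xbp1 and Herpud1 kept this call in each of the 8 fits that left out 1 array. Creb3l1 rose against quiescent cells in both settings, by different amounts, whereas Xbp1 and Herpud1 fell in culture and did not pass in CCl4 cells.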

How the results depend on the processing

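Over 2620 alternative values of single genes, 2463 kept their side of the threshold, 29 passed it newly and 128 no longer passed. Among the 2463, 78 changed sign while not past the threshold under either setting. A change of sign where either setting passed was seen for 0. Fitting only the groups compared gave 5 rises in culture, 2 at 2 weeks and 7 at 4 weeks. Trend and robust options gave 9 rises at 2 weeks. Between culture and CCl4, centring each array, trend and robust options, and fitting only the groups compared each gave 1 gene higher in culture. Leaving out 1 array gave 4 to 8 rises and 2 to 3 falls in culture, 2 to 4 rises at 2 weeks, 3 to 12 at 4 weeks, and 0 to 1 genes higher and 3 to 7 lower between culture and CCl4. Counts of falls at 2 and 4 weeks were 0 under every alternative run. The replicate block gave 7 rises and 3 falls in culture, 3 rises at 2 weeks and 10 at 4 weeks. Same-numbered arrays did not deviate together (correlations from -0.04 to 0.07), so the numbers were not taken as pairs. Alternatives for the other pathway and marker lists were chosen after seeing the data. The number of arrays, 2 per group, limits every comparison.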
